A study of Mus musculus with 6 samples.

Results

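Cathepsins are the proteases of the lysosome, the acidic compartment in which a cell digests what it has taken up. The 10 genes of that compartment followed here in mouse cortical lesions were the cysteine cathepsins Ctsb, Ctsc, Ctsh, Ctsl, Ctss and Ctsz, the aspartic protease Ctsd, the membrane proteins Lamp1 and Lamp2, and Cst3, which encodes cystatin C, a secreted inhibitor of cysteine cathepsins. They were chosen by name from the 32285 features of the count matrices, and all 10 were measured. Cysteine cathepsins and cathepsin D are made as inactive precursors and mature in acid. Cathepsin C activates serine proteases of leukocytes and cathepsin S trims the invariant chain of antigen-presenting cells, while LAMP proteins line the lysosomal membrane. Macrophages and microglia are known for high lysosomal activity when they clear debris, and fibroblasts use cathepsins to degrade collagen that they have internalised.

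The lesions were made by photothrombosis, in which light and an injected dye close the vessels of a patch of cortex. Nuclei were profiled in 6 droplet libraries, with 1 library for each of 3 conditions at 7 and 21 days post-injury (dpi). Ctrl libraries came from WT mice with no treatment given in the labels, and ADWA11 libraries from WT mice given ADWA11, an antibody that blocks the αvβ8 integrin and was injected on the day of injury and weekly thereafter. Tgfbr2-cKO libraries came from Col1a2(creER); Tgfbr2(flox) mice, in which tamoxifen induces a Cre driven by Col1a2 and so deletes the type II TGFβ receptor in fibroblasts. The study's methods say of its knockout strains in general that controls were given tamoxifen where relevant and, outside select experiments, were littermates without Cre or heterozygous for the floxed allele, whereas the labels of these Ctrl libraries say WT. Which Tgfbr2(flox) allele was used, and whether these Ctrl mice in particular received tamoxifen, is not given in the sources used here. The mice were 7 to 21 weeks old and on a C57BL/6 background, as the study's methods give for experiments in general. Each library combined lesions of 1 male and 1 female mouse, so no group had a replicate library, no test across mice was made and no p-value is given. The mice of a library shared 1 library preparation. Levels are CPM, the UMIs (unique molecular identifiers, each standing for 1 captured transcript) of a gene scaled to a fixed total of 1000000 non-mitochondrial UMIs of a cell class in a library, with an exact Poisson 95% interval in parentheses, and differences are log2 ratios with an exact conditional binomial 95% interval. These intervals cover counting error only. A difference is called higher or lower where it reached 1.5-fold. Beside each count of members stands the share of all genes with at least 50 UMIs in the 2 libraries that reached 1.5-fold either way. These shares are not matched to the members for UMIs, and genes with few UMIs reach 1.5-fold more easily by counting error, above all in thin classes. A lower level in a class can come from less RNA of the gene per nucleus or from fewer nuclei of a state that carries it, and summed counts cannot tell these apart.

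The libraries held 7205 to 14246 barcodes and 64798965 to 140310354 UMIs, and 61917 nuclei passed the filters. The Tgfbr2-cKO library at 7 dpi stood apart, since 5884 of its nuclei (55.5%) were neuron-like against 10 to 724 nuclei in each other library, and 3.04% were fibroblast-like against 13.6 to 34.1% elsewhere. Each pair of libraries shared 21 to 61 barcode sequences. Classes were rebuilt from marker genes and are called "-like" for that reason. They include 13319 fibroblast-like nuclei, 4469 microglia-like nuclei and 3 groups of macrophages. The border-type group (2283 nuclei) carried Mrc1, Cd163, F13a1, Cbr2, Pf4, Folr2 and Siglec1, markers of the macrophages that live along brain borders and vessels. Lyve1, Stab1 and Ms4a7, of the same marker list, were not raised in it over the other myeloid nuclei. A second group (743 nuclei) matched the marker list of lesion macrophages headed by Spp1 and Plau through Gpnmb, Lpl and Mmp12, while Spp1 and Plau themselves were not raised in it over the other myeloid nuclei, and it is called the Mmp12 Gpnmb Lpl group after the markers it carried. A Fabp4 Cd5l group (4701 nuclei) had Fabp4, Cd5l, Slamf8, Pparg and Vcam1 raised. Sub-clusters of myeloid nuclei that did not meet the naming rule are given by number. Tgfbr2, the gene targeted in the Tgfbr2-cKO mice, was at 315 CPM in Ctrl fibroblast-like nuclei at 7 dpi and at 233 CPM in Tgfbr2-cKO, and at 219.8 and 186 CPM at 21 dpi. The ADWA11 libraries, with an intact gene, were at 243 and 189 CPM. UMIs are counted over the whole gene, which includes parts outside the deleted exon, so these values do not check the deletion.

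Transcription of many lysosomal genes is driven by TFEB and related factors, which bind E-boxes with the core CACGTG. Of the 10 genes, 8 had a promoter in the RefSeq table of GRCm38.p6 used here, Ctsb and Ctsh being the others. The 250 bases before the start held the palindrome CACGTG in 3 of these 8 genes, 2 times in Ctsd, 1 time in Ctsl and 4 times in Lamp1. Of 32851 promoters in the table, 6.02% held it. The longer palindrome TCACGTGA, which contains CACGTG and was also searched on both strands, stood in 1 of the 8 members, Ctsd, and in 0.785% of all promoters. The following stretches show where the E-box core, in capitals, lies in these genes. They are printed because Ctsd and Ctsl moved in opposite directions with time in microglia-like nuclei, among other classes, and Lamp1 holds most copies. They lie 239, 92, 230, 55 and 22 bases before the start, at chr7:142388057-142388077 (-), chr7:142387910-142387935 (-), chr13:64370741-64370766 (-), chr8:13159090-13159115 (+) and chr8:13159123-13159148 (+). These distances run to the starts of the RefSeq table. For Lamp1 that start is also the start of the GENCODE gene span printed below. For Ctsd and Ctsl it is not the end of the printed span, and Ctsd E-box 2 and the Ctsl E-box lie inside those spans. A match is a description of the sequence only.
Ctsd E-box 1: tccccCACGTGacctgtatcc
Ctsd E-box 2: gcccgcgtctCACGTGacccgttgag
Ctsl E-box 1: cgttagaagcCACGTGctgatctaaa
Lamp1 E-box 1: ggcaagatatCACGTGgtccagcgcc
Lamp1 E-box 3: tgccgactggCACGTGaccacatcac

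Where in the lesion each gene was found came first. Every member was lowest, by median over libraries, in neuron-like nuclei among the 24 classes and unnamed clusters with at least 50 nuclei in a library. Ctsc led in border-type macrophages, with a median of 938 CPM and a range over libraries of 361 to 1167 CPM, which overlapped that of the Fabp4 Cd5l group (397 to 587 CPM). Ctsb, Ctsh and Ctss had their highest medians among named classes in the Fabp4 Cd5l group, with 1714, 422 and 886 CPM. That group had fewer than 50 nuclei in Ctrl and Tgfbr2-cKO at 7 dpi, so its medians leave these libraries out. Within libraries at 21 dpi, Ctss was higher in the Mmp12 Gpnmb Lpl group, at 916 against 868 CPM in Ctrl and 1118 against 904 CPM under ADWA11. Under ADWA11 at 7 dpi it was lower there, at 415 against 591 CPM. Ctsd and Ctsz were highest among named classes in microglia-like nuclei, with medians of 1716 and 314 CPM, and Ctsl in the Mmp12 Gpnmb Lpl group, with 558 CPM. Cst3 was led by dendritic-like nuclei with a median of 553 CPM, ranging from 445 to 844 CPM, while microglia-like nuclei ranged from 132 to 396 CPM. Of 230 neighbouring pairs of classes in these orders, 214 overlapped in range over libraries and 16 did not, so the order of medians is mostly not firm. An unnamed cluster of 187 barcodes with few UMIs, led by ribosomal protein genes and Tmsb4x, lay above all of these classes for 8 of the 10 members.

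Lamp2, which also takes part in chaperone-mediated autophagy, had medians of 465, 460 and 414 CPM in the Fabp4 Cd5l group, the border-type group and microglia-like nuclei, and 304 CPM in fibroblast-like nuclei. Fibroblast-like nuclei ranked 11 of 24 for Lamp2 and between 18 and 23 for the other 9 members. Lamp1 had a median of 294 CPM in the Fabp4 Cd5l group, 277 CPM in the border-type group and 62.5 CPM in fibroblast-like nuclei. Levels are compared here between classes for 1 gene at a time and never between genes, since longer genes and more intronic sequence give more UMIs in nuclei.

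**Figure D1:**
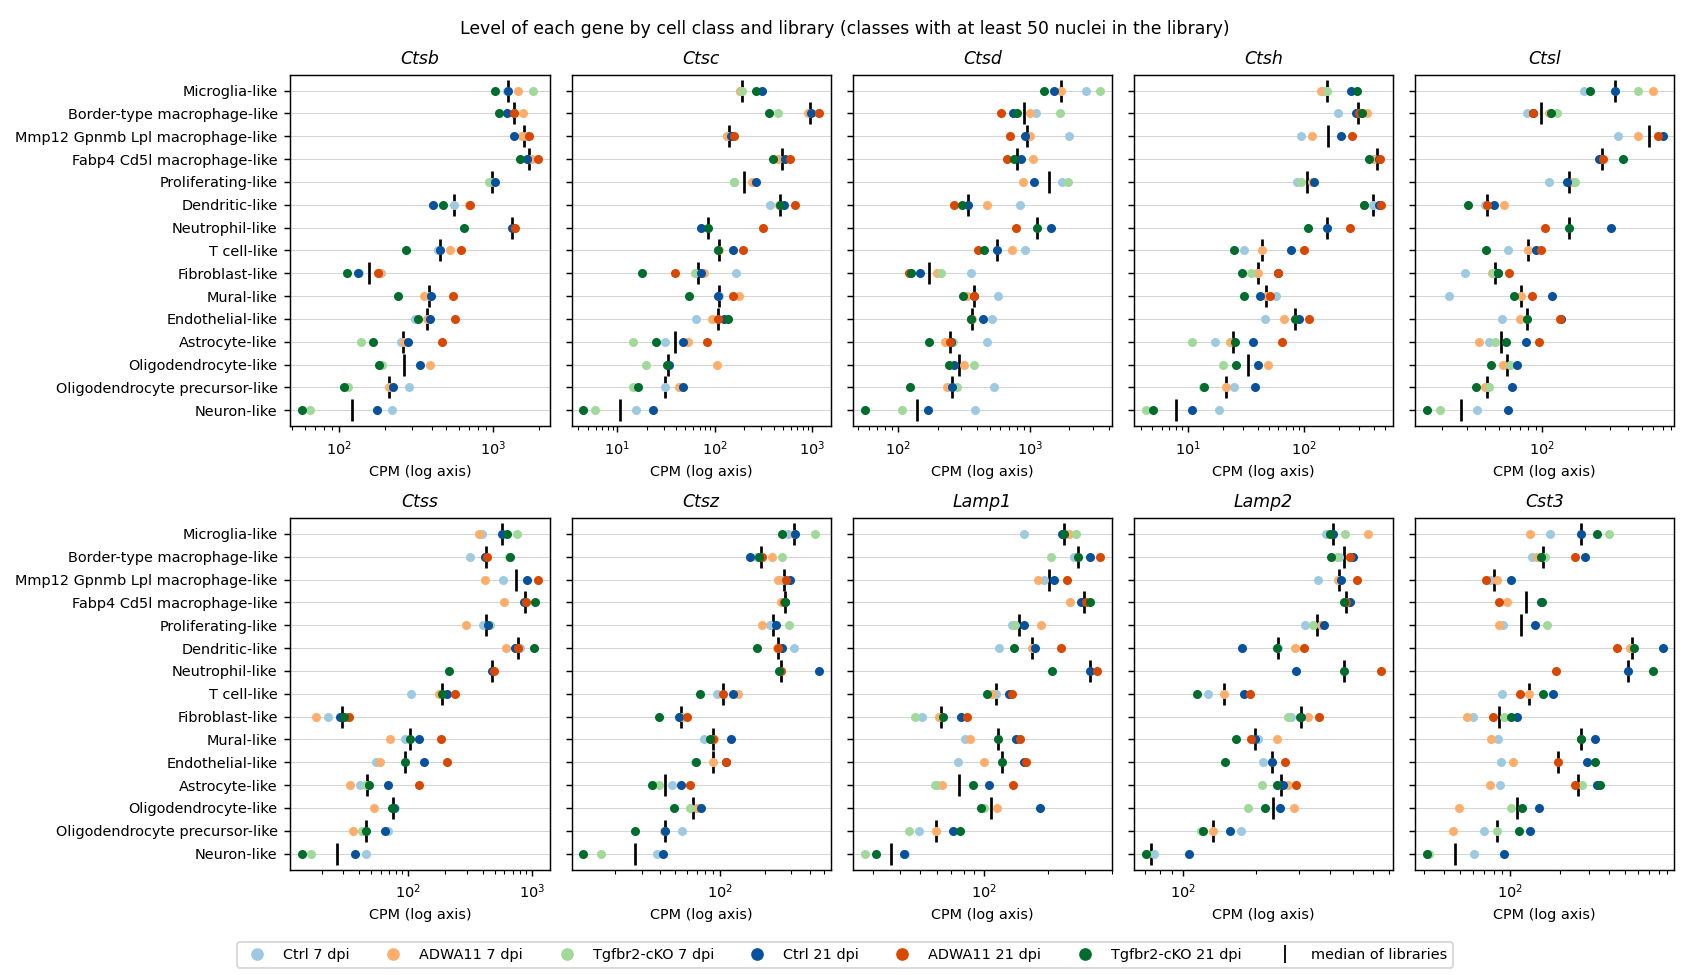
Level of each of the 10 genes in CPM on a log axis, in 15 cell classes. Each dot is 1 library with at least 50 nuclei of the class, and the bar is the median over libraries. Ctsc peaks in border-type macrophages (median 938 CPM), Ctsl in the Mmp12 Gpnmb Lpl group (558 CPM) and Cst3 in dendritic-like nuclei (553 CPM), while Lamp2 has medians of 414 to 465 CPM in microglia-like nuclei, the border-type group and the Fabp4 Cd5l group and 304 CPM in fibroblast-like nuclei.

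In border-type macrophages, Ctsc was the member that differed most in Tgfbr2-cKO. Ctsc lies at chr7:88278085-88310888 (+) in GRCm38. It was at 1148 CPM (1086 to 1212) in Ctrl, 909 CPM (880.1 to 938) under ADWA11 and 447 CPM (407 to 489) in Tgfbr2-cKO at 7 dpi. At 21 dpi the same conditions gave 968 CPM (898 to 1042), 1167 CPM (1117 to 1219) and 361 CPM (339.6 to 384). Both Tgfbr2-cKO libraries therefore lay below all 4 others. The log2 ratio of Tgfbr2-cKO to Ctrl was -1.36 (-1.52 to -1.21) at 7 dpi and -1.42 (-1.56 to -1.28) at 21 dpi. Under ADWA11 it was -0.34 and 0.27, within 1.5-fold in both cases and opposite in sign. Nuclei that could be called female by Xist or male by Y-linked genes, which stand for 1 mouse each, gave the same order. The Tgfbr2-cKO mice were at 394 CPM (female) and 511 CPM (male) at 7 dpi and at 232 and 573 CPM at 21 dpi. The other 8 mice lay between 710.4 and 1279.7 CPM. At 7 dpi the difference was not seen in those nuclei that the clustering over all nuclei also placed in a border-marked cluster. In them Ctsc was at 1313 CPM in Ctrl and 1397 CPM in Tgfbr2-cKO, the latter from 28 nuclei.

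Ctss went the other way. It lies at chr3:95526786-95556403 (+) and was at 315 CPM (283 to 349) in Ctrl, 417 CPM (398 to 437) under ADWA11 and 653 CPM (605 to 704) in Tgfbr2-cKO at 7 dpi. At 21 dpi it was at 415 CPM (369 to 464), 437 CPM (407 to 469.6) and 669 CPM (639.9 to 699.9). Both Tgfbr2-cKO libraries lay above the 4 others, with log2 ratios of 1.05 (0.87 to 1.24) and 0.69 (0.52 to 0.87) against Ctrl. Neither call held in those nuclei of the group that the clustering over all nuclei also placed in a border-marked cluster (0.31 and 0.28), and with lysosomal genes kept for clustering the second was 0.31. The Tgfbr2-cKO mice were at 656 and 647 CPM at 7 dpi and at 684 and 639 CPM at 21 dpi, and the other 8 mice between 270.4 and 449 CPM.

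Ctsd, at chr7:142375911-142388038 (-), was at 1117 CPM (1056 to 1180.3) in Ctrl, 1009.9 CPM under ADWA11 and 1698 CPM (1620.0 to 1779) in Tgfbr2-cKO at 7 dpi. By 21 dpi it was at 745 CPM (684 to 810.1), 609.7 CPM and 806 CPM (773 to 839). Its log2 ratio in Tgfbr2-cKO was 0.60 (0.50 to 0.71) at 7 dpi and 0.11 (-0.02 to 0.25) at 21 dpi. In each condition the level at 21 dpi was below that at 7 dpi. At 21 dpi Cst3, at chr2:148871722-148875692 (-), was lower in Tgfbr2-cKO than in Ctrl and ADWA11, which were within 1.5-fold of each other. It was at 136, 146 and 163 CPM at 7 dpi in Ctrl, ADWA11 and Tgfbr2-cKO, and at 287 CPM (249 to 328), 249 CPM (226 to 274) and 155 CPM (141 to 170.0) at 21 dpi. Ctrl at 21 dpi was thus higher than Ctrl at 7 dpi by 1.08 (0.77 to 1.39) on the log2 scale. Tgfbr2-cKO at 21 dpi was lower than Ctrl, with a log2 ratio of -0.89 (-1.13 to -0.65).

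Of the remaining members, Ctsh and Ctsl also reached 1.5-fold in this group. Ctsh was higher under ADWA11 at 7 dpi (196 CPM in Ctrl, 346 CPM with the antibody, log2 ratio 0.82, 0.62 to 1.03). Ctsl was higher in Tgfbr2-cKO at 7 dpi (78.2 against 127 CPM, log2 ratio 0.70, 0.30 to 1.11). Ctsb, Ctsz, Lamp1 and Lamp2 stayed within 1.5-fold in all 5 comparisons. Lamp2 ranged from 405 to 496 CPM over the 6 libraries.

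Of the 10 members, 3 were higher (Ctsd, Ctsl and Ctss) and 1 lower (Ctsc) in Tgfbr2-cKO at 7 dpi, where 23.9% of all genes reached 1.5-fold. At 21 dpi 1 was higher (Ctss) and 2 were lower (Ctsc and Cst3), against 28.4% of all genes. Under ADWA11 1 was higher at 7 dpi (Ctsh) and none reached 1.5-fold at 21 dpi, against 16.8% and 12.6%. Between 7 and 21 dpi in Ctrl 1 was higher (Cst3), against 17.8%. These counts are read against the backgrounds and no more is drawn from them. Of the 9 calls in this group, 2 held under every alternative processing tried, those of Ctsc in Tgfbr2-cKO at 21 dpi and of Cst3 with time. With lysosomal genes kept for clustering, Ctsc in Tgfbr2-cKO at 7 dpi was at -0.53 on the log2 scale and Cst3 at 21 dpi at -0.092.

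**Figure D2:**
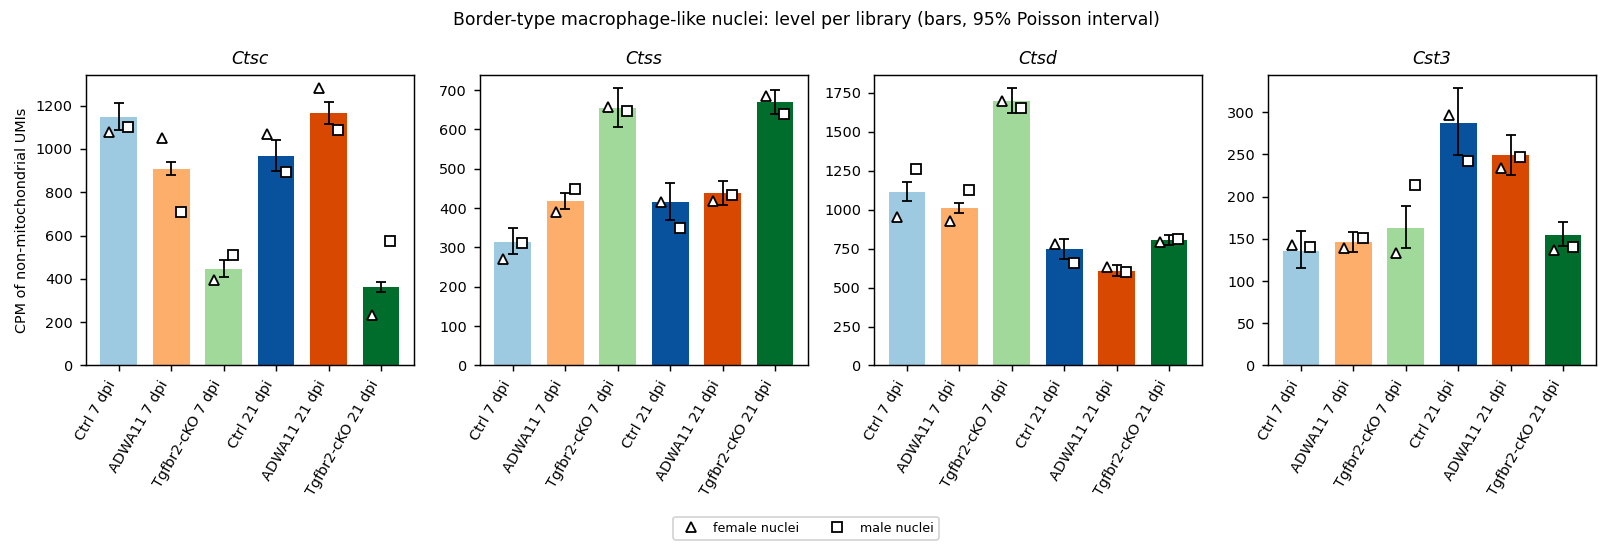
Levels of Ctsc, Ctss, Ctsd and Cst3 in border-type macrophages, in CPM. Bars are libraries with exact Poisson 95% intervals, triangles are female nuclei and squares male nuclei of the same library. Ctsc was lowest (447 and 361 CPM) and Ctss highest (653 and 669 CPM) in the Tgfbr2-cKO libraries, although at 7 dpi the Ctsc difference was not seen in the border-marked cluster alone (1313 CPM in Ctrl and 1397 CPM in Tgfbr2-cKO), and the Ctss differences were within 1.5-fold there at both times.

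The border-type group was not made of the same nuclei in every library. It joined nuclei that lay in a border-marked cluster of the clustering over all nuclei with others that reached the group only in the sub-clustering of myeloid nuclei. In Ctrl the first kind made up 144 of 239 nuclei at 7 dpi and 133 of 193 at 21 dpi. In Tgfbr2-cKO it made up 28 of 271 and 113 of 548, and with ADWA11 370 of 658 and 326 of 374. Marker levels moved with this. Mrc1, the mannose receptor, was at 3409.9 CPM in Ctrl and at 871 CPM in Tgfbr2-cKO at 7 dpi, and at 3609.5 and 1636 CPM at 21 dpi. All 10 border markers were below Ctrl in Tgfbr2-cKO at 21 dpi, and 9 of 10 at 7 dpi, Lyve1 being the exception.

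Within the border-marked cluster alone, Ctsc was at 1313 CPM (1228 to 1403) in Ctrl and 1397 CPM (1181 to 1639.7) in Tgfbr2-cKO at 7 dpi, so the difference at that time was not seen there. At 21 dpi it was at 951 CPM (868 to 1041) and 587 CPM (529 to 649), so a difference of over 1.5-fold was kept. Among the other nuclei of the group, Ctsc was at 908 CPM in Ctrl and at 339 CPM in Tgfbr2-cKO at 7 dpi and at 1004 and 297 CPM at 21 dpi. ADWA11 was also below Ctrl by over 1.5-fold among these nuclei at 7 dpi, at 526 CPM (494 to 559), and was at 1058 CPM from 48 nuclei at 21 dpi, so lower Ctsc was not limited to Tgfbr2-cKO there. Ctss in the border-marked cluster was at 264 and 328 CPM (229 to 456) at 7 dpi and at 394 and 477 CPM at 21 dpi, so neither difference reached 1.5-fold there. Ctsd there was at 1061 and 890.4 CPM at 7 dpi, the opposite direction. Ctsl also turned there, at 63.1 CPM (45.5 to 85.3) in Ctrl and 28.1 CPM (5.80 to 82.2) in Tgfbr2-cKO at 7 dpi, the latter from 3 UMIs. This division was examined after the values had been seen.

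Fibroblasts, the cells in which Cre deletes the receptor, held these genes at lower levels. Free RNA from broken cells reaches every droplet, so levels are set beside those of neuron-like nuclei, the lowest class by median over libraries, where a library held at least 50 of them. The ADWA11 libraries held 27 and 10 neuron-like nuclei and give no such level. In Ctrl at 7 dpi, neuron-like nuclei had 383 CPM of Ctsd, 221 CPM of Ctsb, 45.3 CPM of Ctss and 35 CPM of Ctsl, and fibroblast-like nuclei 356, 187, 22.7 and 29 CPM. These 4 genes were at or below that level in Ctrl fibroblast-like nuclei at 21 dpi too (148 against 171 CPM for Ctsd), so no level above that of neuron-like nuclei was seen there, and the part of free RNA was not tested. Cst3 was at 60.8 CPM in neuron-like nuclei and 60 CPM in fibroblast-like nuclei at 7 dpi, and at 91.5 and 109.7 CPM at 21 dpi. Ctsc was at 15.5 CPM in neuron-like nuclei against 164 CPM in fibroblast-like nuclei of the same library, and Lamp2 at 76.2 against 276 CPM. Ctsh and Lamp1 were closer, at 18.5 against 39.8 CPM and at 42.2 against 51 CPM. Median depth was 7936 UMIs in fibroblast-like nuclei of this library and 6610 UMIs in neuron-like nuclei. In the Tgfbr2-cKO libraries, where neuron-like nuclei were many and deep, Ctsd was at 107 and 55.8 CPM in them at 7 and 21 dpi, and at 212 and 125 CPM in fibroblast-like nuclei.

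Ctsc also differed between the conditions in fibroblasts. It was at 164 CPM (158 to 171) in Ctrl, 78 CPM (74.7 to 81.5) under ADWA11 and 62.4 CPM (52.1 to 74) in Tgfbr2-cKO at 7 dpi. At 21 dpi it was at 71.9 CPM (69 to 74.9), 39.5 CPM (37 to 42) and 17.9 CPM (15.1 to 21.1). The order of the 3 libraries was the same at both times, and each condition was lower at 21 dpi. Against Ctrl, Tgfbr2-cKO gave log2 ratios of -1.40 (-1.66 to -1.15) and -2.01 (-2.26 to -1.76), and ADWA11 -1.08 (-1.16 to -0.99) and -0.87 (-0.98 to -0.76). The last of these was lost in 3 of 12 alternatives, at -0.58 in female nuclei, -0.35 with equal weight of sub-clusters and -0.47 with the left-out sub-clusters kept. Both mice of Ctrl at 7 dpi (182 and 157 CPM) lay above both of ADWA11 (76.6 and 86.9 CPM) and both of Tgfbr2-cKO (34.8 and 94.9 CPM), and the last 2 conditions overlapped. At 21 dpi the Ctrl mice were at 58.4 and 86.8 CPM, those of ADWA11 at 39.1 and 37.2 CPM and those of Tgfbr2-cKO at 18.4 and 16 CPM, with no overlap between conditions. Summed markers of myeloid nuclei in the fibroblast-like class were at 173, 209 and 85.4 CPM at 7 dpi in Ctrl, ADWA11 and Tgfbr2-cKO and at 147, 254 and 109 CPM at 21 dpi, with none of these markers at 0. Their part in the Ctsc differences was not tested. Lower Ctsc in Tgfbr2-cKO was not limited to fibroblasts and macrophages. In astrocyte-like nuclei Ctrl and Tgfbr2-cKO were at 31.2 and 14.5 CPM at 7 dpi and at 47.5 and 24.7 CPM at 21 dpi. In oligodendrocyte precursor-like nuclei they were at 30.8 and 14.3 CPM, and at 47.1 and 16.2 CPM. Within 1.5-fold were microglia-like nuclei at both times, endothelial-like and dendritic-like nuclei at 21 dpi, and proliferating-like nuclei at 7 dpi.

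Ctsd was lower with time in Ctrl fibroblasts, and at 7 dpi lower under ADWA11 and in Tgfbr2-cKO. It was at 356 CPM (347 to 365), 198 CPM (193 to 204) and 212 CPM (192 to 232) in Ctrl, ADWA11 and Tgfbr2-cKO at 7 dpi. At 21 dpi it was at 148 CPM (143 to 152), 122 CPM (117 to 126) and 125 CPM (117 to 133). Ctrl at 7 dpi stood above the 5 other libraries, which lay within 122 to 212 CPM. Neuron-like nuclei were also higher in Ctrl at 7 dpi than at 21 dpi (383 and 171 CPM), and the part of free RNA in this difference was not tested.

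Ctsh, an aminopeptidase, was lower in Tgfbr2-cKO at 21 dpi, at 29.4 CPM against 60.5 CPM in Ctrl, a log2 ratio of -1.04 (-1.24 to -0.84). Its levels at 7 dpi were 39.8, 40.4 and 35 CPM in Ctrl, ADWA11 and Tgfbr2-cKO. It had therefore been higher with time in Ctrl (log2 ratio 0.60, 0.47 to 0.73) and not in Tgfbr2-cKO. Ctsl, at chr13:64359337-64370890 (-), was lowest in Ctrl at 7 dpi with 29 CPM, and the other 5 libraries were at 44.3 to 58.9 CPM. Its log2 ratio at 7 dpi was 0.61 (0.45 to 0.77) for ADWA11 and 0.63 (0.30 to 0.96) for Tgfbr2-cKO. The Ctrl level behind both ratios was not above that of neuron-like nuclei in its library (35 CPM), and the ratios fell under 1.5-fold in 6 and 4 of 12 alternatives. Cst3 was at 60, 54.8 and 92.6 CPM at 7 dpi and at 109.7, 78.9 and 102 CPM at 21 dpi. It was higher in Tgfbr2-cKO at 7 dpi (log2 ratio 0.63, 0.40 to 0.85) and higher in Ctrl at 21 than at 7 dpi (0.87, 0.77 to 0.97). The first of these fell under 1.5-fold in 5 of 12 alternatives. The Ctrl level at 7 dpi behind both was not above that of neuron-like nuclei in its library. Cst3 in neuron-like nuclei of Ctrl was also higher at 21 dpi, and the part of free RNA was not tested.

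Lamp2, at chrX:38401357-38456454 (-), was the most even member in these cells. It was at 276, 326 and 271 CPM at 7 dpi and at 305, 361 and 302 CPM at 21 dpi, and its log2 ratio in Tgfbr2-cKO was -0.03 at 7 dpi and -0.01 (-0.08 to 0.05) at 21 dpi. Lamp1, at chr8:13159161-13175338 (+), was at 51 CPM in Ctrl at 7 dpi and 77.5 CPM at 21 dpi, a log2 ratio of 0.60 (0.49 to 0.72). It stayed within 1.5-fold of Ctrl in the ADWA11 and Tgfbr2-cKO libraries at both times.

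In fibroblast-like nuclei, 4 members were higher (Ctsh, Ctsl, Lamp1 and Cst3) and 2 lower (Ctsc and Ctsd) at 21 than at 7 dpi in Ctrl, where 33.6% of all genes reached 1.5-fold. In Tgfbr2-cKO 2 were higher (Ctsl and Cst3) and 2 lower (Ctsc and Ctsd) at 7 dpi, against 21.6%, and 2 were lower (Ctsc and Ctsh) at 21 dpi, against 28.0%. Under ADWA11 1 was higher (Ctsl) and 2 lower (Ctsc and Ctsd) at 7 dpi, against 18.5%, and 1 was lower (Ctsc) at 21 dpi, against 13.9%. The median log2 ratio of the 10 members lay between -0.23 and 0.23 over these comparisons, beside medians of -0.02 to 0.08 over all genes tested, and 6 of the 16 calls held under every alternative. These were Ctsc in Tgfbr2-cKO at both times and under ADWA11 at 7 dpi, Ctsd with time and under ADWA11 at 7 dpi, and Cst3 with time.

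**Figure D3:**
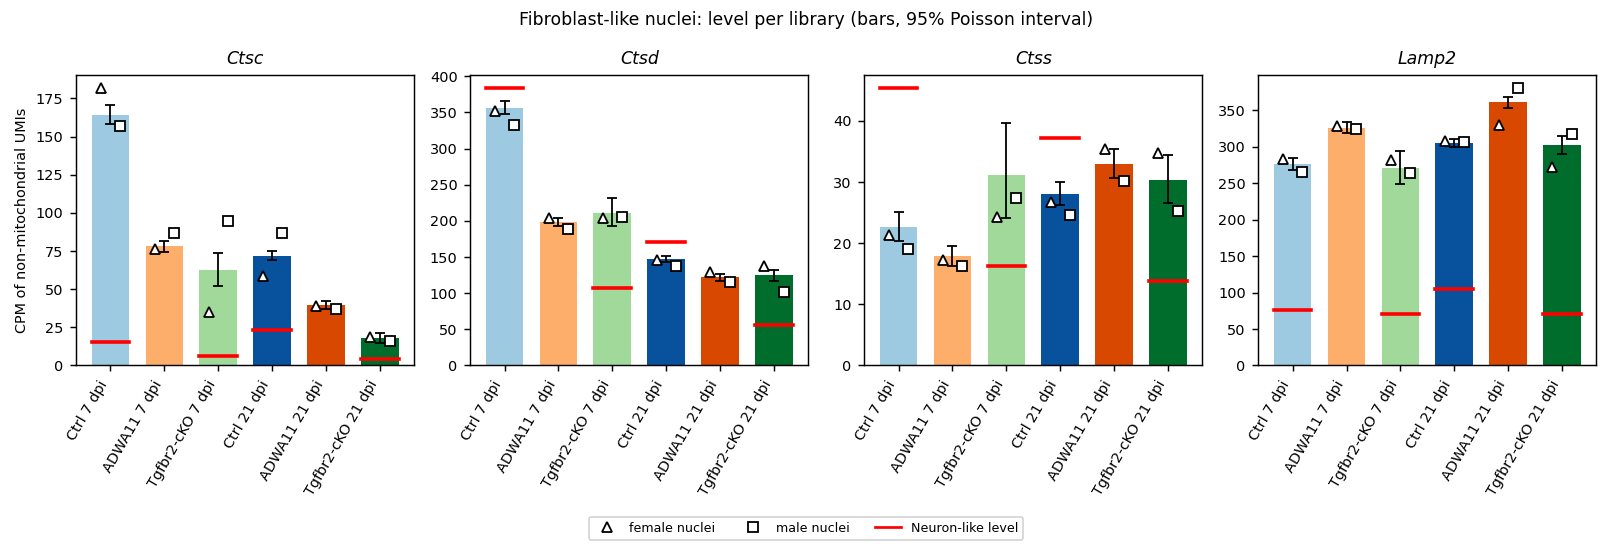
Levels of Ctsc, Ctsd, Ctss and Lamp2 in fibroblast-like nuclei, in CPM, with bars for libraries and exact Poisson 95% intervals, triangles for female nuclei and squares for male nuclei. Red lines give the level in neuron-like nuclei of the same library where it held at least 50 of them. Ctsc is highest in Ctrl and lowest in Tgfbr2-cKO at both times, although at 7 dpi the Tgfbr2-cKO mice (34.8 and 94.9 CPM) overlap those of ADWA11 (76.6 and 86.9 CPM), while Lamp2 stays between 271 and 361 CPM.

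The fibroblast-like class changed its make-up between libraries, and Ctsc was followed in sub-clusters with at least 50 nuclei. Sub-cluster 2, led by Fbxo40, Slc22a22 and Spock3, held 1097 nuclei of Ctrl and 1611 of ADWA11 at 7 dpi, and Ctsc was at 186 CPM (177 to 194) and 78.4 CPM (74.1 to 82.8) in them. In 123 nuclei of Tgfbr2-cKO at 7 dpi it was at 70.3 CPM (54 to 89.9), and in 78 nuclei of Ctrl at 21 dpi at 189.8 CPM (161 to 223). Within this sub-cluster ADWA11 and Tgfbr2-cKO were thus lower than Ctrl at 7 dpi, and Ctrl at 21 dpi was as high as at 7 dpi.

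Sub-cluster 4, led by Gm30613 and Col4a6, was the only one with at least 50 nuclei in all 6 libraries. Its Ctsc levels were 107 CPM (96 to 118) in Ctrl, 76.6 CPM (68.5 to 85.4) under ADWA11 and 74.7 CPM (55.8 to 98) in Tgfbr2-cKO at 7 dpi. At 21 dpi they were 165 CPM (144 to 189), 147 CPM (122 to 177) and 34.1 CPM (20.5 to 53.2). Tgfbr2-cKO at 21 dpi was the lowest of the 6, whereas ADWA11 overlapped Ctrl at that time within counting error. Sub-cluster 0, led by Slc47a2 and Slc47a1, held 1988 nuclei of Ctrl and 2292 of ADWA11 at 21 dpi, with 57.2 CPM (53.4 to 61.3) and 34.3 CPM (31.7 to 37). In Tgfbr2-cKO its 93 nuclei were at 27.3 CPM (17.5 to 40.7).

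The other sub-clusters held the 2 ends of the range. Sub-cluster 6, led by Gm20619, Caln1 and Cpa6 and with the bone markers Ibsp, Sp7, Runx2 and Alpl raised, had 232 CPM (210 to 257) in Ctrl and 115 CPM (94.5 to 139) under ADWA11 at 7 dpi. The 21 dpi libraries of both had 70 and 47.8 CPM. Dividing nuclei of sub-cluster 9, led by Kif4, were at 211 CPM (181 to 244) in Ctrl and 108 CPM (95.5 to 122) under ADWA11 at 7 dpi. At 21 dpi, sub-cluster 3, led by Aifm3 and Ptgds, was at 30.4 CPM in Ctrl, 31.8 CPM with ADWA11 and 16 CPM (11.9 to 21.1) in Tgfbr2-cKO. Sub-cluster 8, led by Gabrg3, held 14 CPM (10.2 to 18.7) but 312 of its 332 nuclei were of Tgfbr2-cKO at 21 dpi, and it may be that library and not a state of its own. It had the neuron markers Snap25, Syt1, Slc17a7 and Grin2a raised, and its nuclei were 312 of the 898 fibroblast-like nuclei of that library. Without it, Ctsc there was at 20.6 CPM (16.7 to 25.1) and the log2 ratio to Ctrl was -1.80, and no call of a member in the class was lost. Sub-cluster 5, led by Clstn2, with 92.6 CPM, also came mostly from 1 library, with 1051 of 1126 nuclei from Ctrl at 21 dpi, and values without it were not computed.

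The lower Ctsc of Ctrl fibroblasts at 21 dpi was not a drop in every sub-cluster. The log2 ratio of 21 to 7 dpi was -1.19 (-1.28 to -1.11) over the class and 0.011 with equal weight of sub-clusters, a mean over sub-clusters that went opposite ways. From 7 to 21 dpi in Ctrl, Ctsc was lower in sub-cluster 6 (232 and 70 CPM), higher in sub-cluster 4 (107 and 165 CPM) and sub-cluster 0 (26.5 and 57.2 CPM), and within 1.5-fold in sub-cluster 2 (186 and 189.8 CPM). The part of the make-up of the class in this difference was not tested. Ctsd was lower at 21 than at 7 dpi within sub-cluster 2 (344 and 87.3 CPM), sub-cluster 4 (347 and 160 CPM), sub-cluster 6 (387 and 190 CPM) and sub-cluster 0 (411 and 149 CPM) of Ctrl.

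**Figure D4:**
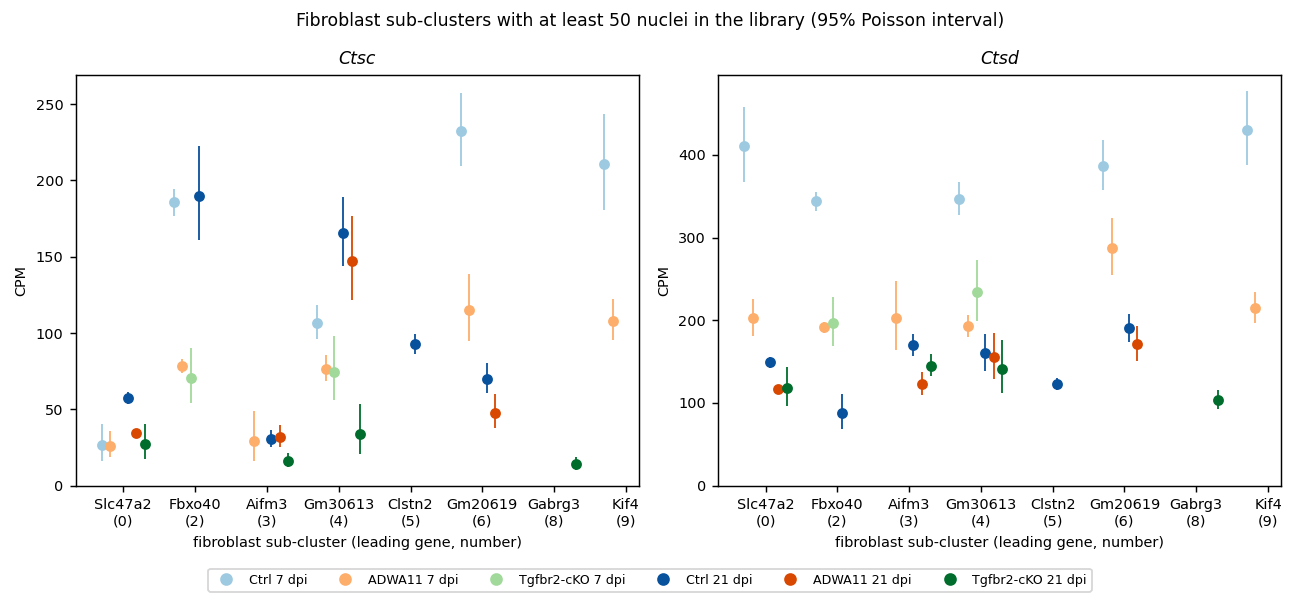
Levels of Ctsc and Ctsd in CPM in sub-clusters of fibroblast-like nuclei with at least 50 nuclei in a library, each named by its leading gene, with points for libraries and exact Poisson 95% intervals. Ctsc is lower in Tgfbr2-cKO than in Ctrl in sub-cluster 4 at 21 dpi (34.1 against 165 CPM), and Ctsd in Ctrl is lower at 21 than at 7 dpi in sub-clusters 0, 2, 4 and 6.

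Microglia-like nuclei showed Ctsd and Ctsl moving in opposite directions with time. In Ctrl, Ctsd was at 2662 CPM (2631 to 2694) at 7 dpi and 1527 CPM (1496 to 1559) at 21 dpi, a log2 ratio of -0.80 (-0.84 to -0.77). Both Ctrl mice at 7 dpi (2807 and 2666 CPM) were above both at 21 dpi (1546 and 1543 CPM). Ctsl was at 197 CPM (188 to 205) and 324 CPM (309.9 to 339), a log2 ratio of 0.72 (0.63 to 0.81). The mice were at 231 and 181 CPM at 7 dpi and at 372 and 290.0 CPM at 21 dpi. Ctsc, Ctsh, Lamp1 and Cst3 were also higher at 21 dpi, with log2 ratios of 0.78 (0.68 to 0.87), 0.81 (0.70 to 0.91), 0.60 (0.49 to 0.70) and 0.62 (0.52 to 0.72). Ctsb, at chr14:63122462-63145923 (+), was at 1229 and 1245 CPM and did not move. Lower Ctsd with higher Ctsl was not limited to microglia-like nuclei. In Ctrl their log2 ratios were -1.27 and 0.75 in fibroblast-like nuclei and -1.12 and 1.05 in the Mmp12 Gpnmb Lpl group. They were -0.92 and 0.86 in astrocyte-like nuclei, and within 1.5-fold in border-type macrophages (-0.58 and 0.15). Ctsd was also lower with time in neuron-like nuclei, and the part of free RNA was not tested.

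The other conditions were thin at 7 dpi, with 112 microglia-like nuclei under ADWA11 and 70 in Tgfbr2-cKO against 1757 in Ctrl. Ctsl was at 600.3 CPM (536 to 669.9) under ADWA11 and 472 CPM (409 to 541) in Tgfbr2-cKO, so both were above Ctrl, with log2 ratios of 1.61 (1.44 to 1.78) and 1.26 (1.05 to 1.47). Ctsd was at 1716 CPM (1607 to 1831) under ADWA11, lower than Ctrl by a log2 ratio of -0.63 (-0.73 to -0.54), and at 3432 CPM (3259 to 3613) in Tgfbr2-cKO, within 1.5-fold of Ctrl. In Tgfbr2-cKO at 7 dpi Ctss was at 755 CPM against 399 CPM in Ctrl (log2 ratio 0.92, 0.75 to 1.09) and Cst3 at 396 against 176 CPM (1.17, 0.94 to 1.40), and both calls were lost on log-normalised clustering (0.30 and 0.16). Ctsz, at chr2:174427493-174439039 (-), was at 432 CPM against 287 CPM there (0.59, 0.37 to 0.81), a call that was lost in 7 of 10 alternatives and was -0.045 on log-normalised clustering. In that library 1708 nuclei with microglia markers were in myeloid sub-cluster 5, which stayed unnamed because neuron markers were among its leading genes. That sub-cluster had 2544 CPM of Ctsd and 364 CPM of Ctsz. The ADWA11 library at 7 dpi held 2590 nuclei in unnamed myeloid sub-cluster 2, against 69 in Ctrl. In sub-cluster 2 at 7 dpi, Ctsl was at 158 CPM under ADWA11 and 51.4 CPM in Ctrl, and Ctsd at 1064 and 1620 CPM.

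At 21 dpi the Tgfbr2-cKO library held 1351 microglia-like nuclei and Ctrl 1139, and no member reached 1.5-fold. The largest difference was that of Ctsl, at 217 CPM (206 to 227) against 324 CPM, a log2 ratio of -0.58 (-0.68 to -0.49). Cst3 in Tgfbr2-cKO was at 227 CPM in the female mouse and 402 CPM in the male mouse, a spread between mice that exceeded the difference from the Ctrl mice (280.0 and 252 CPM). Under ADWA11 only 40 microglia-like nuclei remained at 21 dpi, and their summed microglia markers were at 112 CPM against 919 CPM in Ctrl, with 3 of 10 markers at 0. In those nuclei Ctsb was at 1977 CPM against 1245 CPM, Ctsd at 965 CPM (815 to 1135), Ctsz at 212 CPM and Cst3 at 112 CPM, but they are few and short of the defining markers. Ctsd under ADWA11 at 21 dpi was 0.23 above Ctrl, on the log2 scale, on log-normalised clustering.

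Of the 10 members, 5 were higher (Ctsc, Ctsh, Ctsl, Lamp1 and Cst3) and 1 lower (Ctsd) with time in Ctrl microglia-like nuclei, where 24.2% of all genes reached 1.5-fold. In Tgfbr2-cKO 5 were higher at 7 dpi (Ctsl, Ctss, Ctsz, Lamp1 and Cst3), against 29.0%, and none reached 1.5-fold at 21 dpi, against 15.5%. Under ADWA11 2 were higher (Ctsl and Lamp1) and 1 lower (Ctsd) at 7 dpi, against 36.6%. At 21 dpi 1 was higher (Ctsb) and 3 lower (Ctsd, Ctsz and Cst3) under ADWA11, against 48.6%. The ADWA11 calls at 21 dpi rest on 40 nuclei, fewer than the 50 asked for elsewhere and short of the microglia markers. The median log2 ratio of the members was 0.56 with time in Ctrl and 0.58 in Tgfbr2-cKO at 7 dpi, beside 0.08 and -0.02 over all genes tested. The second median rests on 70 nuclei and was 0.30 with the unnamed microglia-marked sub-cluster and 0.14 on log-normalised clustering. Of the 18 calls in this class, 6 held under every alternative, those of Ctsc, Ctsd, Ctsh and Ctsl with time and of Ctsl in both ADWA11 and Tgfbr2-cKO at 7 dpi.

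Among the other macrophages, Ctsl stood highest in the Mmp12 Gpnmb Lpl group. It was at 338 CPM (289 to 393) in Ctrl and 470.2 CPM (436 to 507) under ADWA11 at 7 dpi, and at 699 CPM (641 to 760) and 646 CPM (617 to 676) at 21 dpi. Tgfbr2-cKO contributed 1 and 8 nuclei to this group and is not compared. Ctsc in the group was low and even, at 134, 134, 145 and 158 CPM in the same order. Ctsd was at 1982 CPM in Ctrl and 1001 CPM under ADWA11 at 7 dpi, and at 915 and 707 CPM at 21 dpi. Ctsh was at 93.9 and 116.5 CPM at 7 dpi and at 209 and 257 CPM at 21 dpi.

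The Fabp4 Cd5l group had at least 50 nuclei under ADWA11 at 7 dpi and in all 3 conditions at 21 dpi. Cst3 was at 155 CPM (135 to 177) in Ctrl, 85.9 CPM (81.9 to 90) under ADWA11 and 157 CPM (116 to 208) in Tgfbr2-cKO at 21 dpi, and at 95.4 CPM (87.1 to 104) under ADWA11 at 7 dpi. At 21 dpi ADWA11 was thus below Ctrl and Tgfbr2-cKO. The ADWA11 level at 7 dpi has no Ctrl level of the same day beside it, since Ctrl held 19 nuclei of the group then. Ctss was at 868, 904 and 1051 CPM at 21 dpi, and Ctsc at 529, 587 and 397 CPM, lowest again in Tgfbr2-cKO, which had 51 nuclei. Ctsb ranged from 1502 to 1958 CPM and Lamp2 from 458 to 483 CPM over the 4 libraries.

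Myeloid sub-cluster 3, unnamed because 5 fibroblast markers were raised in it, showed the widest range of Ctsl. It was at 149 CPM (141 to 157) in 1565 nuclei of Ctrl and 765 CPM (741 to 790) in 714 nuclei of ADWA11 at 7 dpi. At 21 dpi it was at 169, 262 and 282 CPM in Ctrl, ADWA11 and Tgfbr2-cKO. Called doublets made up 9.32% of this sub-cluster, and their part in the value was not tested. Ctsd at 21 dpi was below its level at 7 dpi there, at 2009 and 1188 CPM in Ctrl and at 1192 and 848 CPM under ADWA11.

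Summed over the 3 macrophage groups, Ctsc was at 839 CPM in Ctrl and at 446 CPM in Tgfbr2-cKO at 7 dpi (log2 ratio -0.91, -1.06 to -0.76) and at 538 and 358 CPM at 21 dpi (-0.59, -0.70 to -0.48). The sum mixes groups in different shares, since Fabp4 Cd5l nuclei were 3632 of 4394 under ADWA11 at 21 dpi and 3 of 275 in Tgfbr2-cKO at 7 dpi. With time in Ctrl 3 members were higher (Ctsh, Ctsl and Ctss) and 2 lower (Ctsc and Ctsd), against 21.8% of all genes. In Tgfbr2-cKO 2 were higher (Ctsh and Ctss) and 1 lower (Ctsc) at 7 dpi, against 18.5%, and 2 were lower (Ctsc and Ctsl) at 21 dpi, against 20.8%. Under ADWA11 2 were higher at 7 dpi (Ctsh and Ctsl), against 20.2%, and 1 was lower at 21 dpi (Cst3), against 18.4%. Of these 13 calls, only that of Ctsl with time held under every alternative. With lysosomal genes kept for clustering, Tgfbr2-cKO gave log2 ratios of -0.72 (Ctsh) and -0.10 (Ctss) at 7 dpi and 0.13 (Ctsl) at 21 dpi. Equal weight of groups gave 0.49 for Ctsl in Tgfbr2-cKO at 21 dpi. With unnamed sub-clusters 2 and 3 added, Ctsc was 0.19 in Tgfbr2-cKO at 7 dpi and 0.35 with time in Ctrl.

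**Figure D5:**
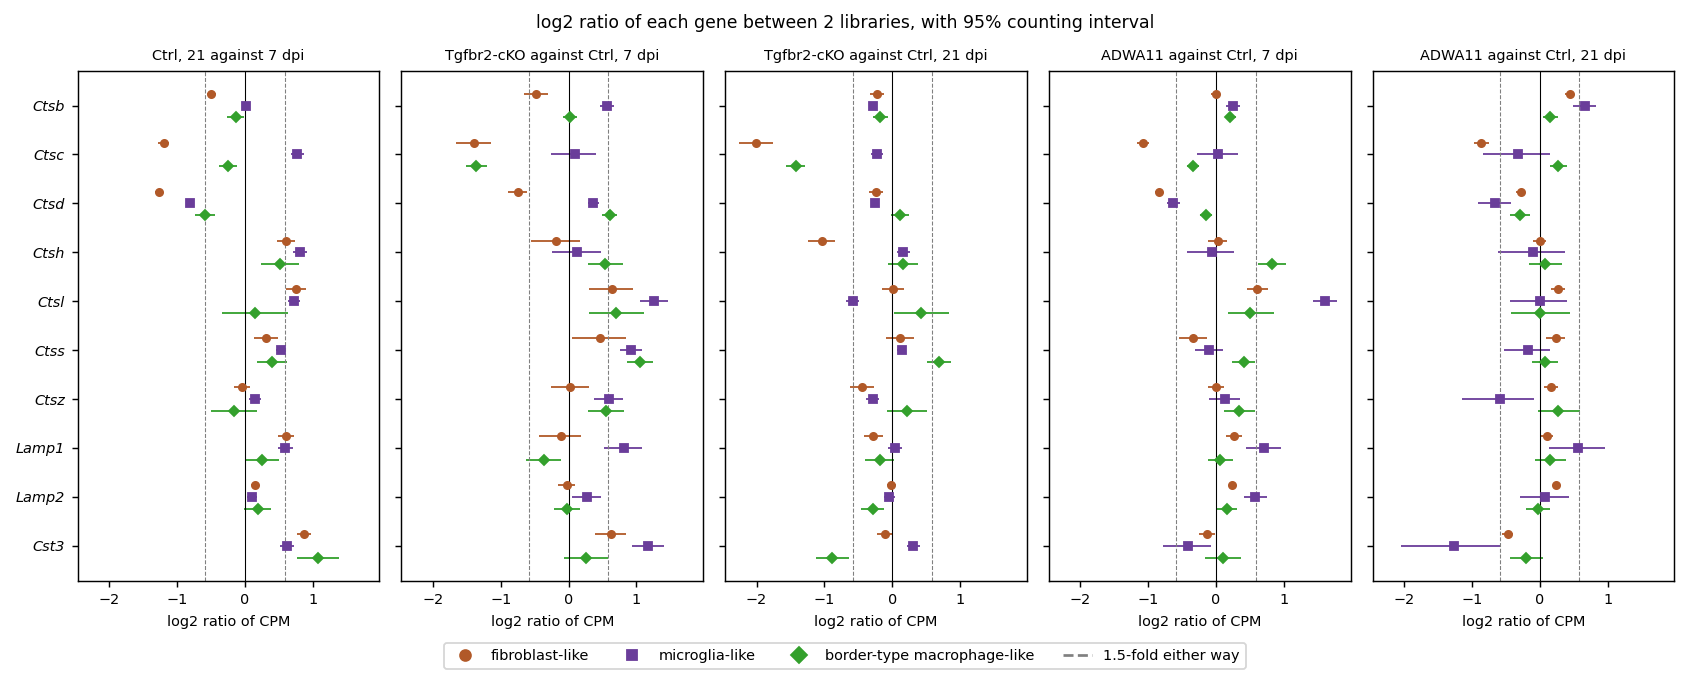
Log2 ratios of the 10 genes with exact 95% intervals in 5 comparisons, for fibroblast-like nuclei, microglia-like nuclei and border-type macrophages. Dashed lines mark 1.5-fold. Ctsc in fibroblast-like nuclei lies below the lower line in all 5 comparisons (-0.87 to -2.01), although with equal weight of sub-clusters it was 0.011 with time in Ctrl and -0.35 for ADWA11 at 21 dpi, and in border-type macrophages below it in the Tgfbr2-cKO comparisons (-1.36 and -1.42). In the border-marked cluster alone the first of these was 0.089.

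Wider lists of 75 lysosomal genes (other cathepsins, cystatins, hydrolases, membrane proteins, the proton pump, and sorting receptors and regulators) gave the setting for these 10. Their counts are given beside the share of all genes that reached 1.5-fold in the same comparison, and nothing particular to lysosomal genes is read from them. In border-type macrophages of Tgfbr2-cKO at 21 dpi, 14 of 61 genes tested were higher and 2 lower, against 28.4% of all genes. The 2 were Arsb, which encodes arylsulfatase B, at 73.5 CPM against 325 CPM in Ctrl (log2 ratio -2.14, -2.42 to -1.87), and the pump subunit Atp6v0a1, at 383 against 737 CPM (-0.95, -1.10 to -0.79). The pump subunit Atp6v0d2 was at 654 CPM against 204 CPM there (1.68, 1.44 to 1.93). At 7 dpi 7 of 57 were higher and 1 lower, against 23.9%. Under ADWA11, 11 of 64 were higher and 1 lower at 7 dpi, against 16.8%, with Atp6v0d2 at 1155 against 325 CPM (1.83, 1.68 to 1.99) and Arsb at 65.4 against 269 CPM (-2.04, -2.28 to -1.80). At 21 dpi 3 of 53 were higher and 2 lower under ADWA11, against 12.6%, Arsb again among the latter at 134 against 325 CPM (-1.28, -1.54 to -1.01). With time in Ctrl 3 of 51 were higher and 5 lower, against 17.8%. The make-up of the border-type group differed between libraries, as given above, and these genes were not followed in the border-marked cluster alone.

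In fibroblast-like nuclei 10 of 67 genes were higher and 4 lower with time in Ctrl, against 33.6% of all genes. Atp6v0b, a pump subunit, was at 60.3 CPM at 7 dpi and 114 CPM at 21 dpi (log2 ratio 0.92, 0.82 to 1.02). In Tgfbr2-cKO 2 of 66 were higher and 6 lower at 7 dpi, against 21.6%, and 3 of 67 higher and 5 lower at 21 dpi, against 28.0%. Sort1, which encodes the sorting receptor sortilin, was at 65.4 CPM against 34.9 CPM at 21 dpi (0.91, 0.75 to 1.06), and Atp6v0b at 63.7 against 114 CPM (-0.84, -0.98 to -0.70). Under ADWA11 4 of 66 were higher and 2 lower at 7 dpi, against 18.5%, and 4 of 67 higher and none lower at 21 dpi, against 13.9%. Psap, the precursor of saposins, was at 212 against 139 CPM at 7 dpi (0.62, 0.55 to 0.69).

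Microglia-like nuclei had 10 of 68 genes higher and 4 lower with time in Ctrl, against 24.2% of all genes. Atp6v0d2 was at 228 CPM at 7 dpi and 917 CPM at 21 dpi (log2 ratio 2.01, 1.94 to 2.08), and Arsb at 826 and 425 CPM (-0.96, -1.02 to -0.89). Under ADWA11 20 of 67 were higher and 7 lower at 7 dpi, against 36.6%, and 20 of 66 higher and 8 lower at 21 dpi, against 48.6%, where few nuclei were left. Psap was at 1656 CPM against 574 CPM at 7 dpi (1.53, 1.42 to 1.63). In Tgfbr2-cKO 9 of 66 were higher and 10 lower at 7 dpi, against 29.0%, and 1 of 67 higher and 4 lower at 21 dpi, against 15.5%, with Arsb at 187 against 425 CPM at the later time (-1.18, -1.28 to -1.09). In the summed macrophages 4 of 65 were higher and 9 lower in Tgfbr2-cKO at 21 dpi, against 20.8%. Among these, Ctsk, which encodes the collagen-degrading cathepsin K, was at 14.6 against 51.7 CPM (-1.83, -2.33 to -1.35), and Igf2r, the receptor for mannose 6-phosphate tags, at 46.8 against 126 CPM (-1.43, -1.71 to -1.15).

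Genes whose levels followed those of the members were ranked by Pearson's r of log2(CPM + 1) over 72 pairs of class and library. The points share libraries and classes, so the values describe these data only. Ctsb was closest to Lipa, Apobec1 and C3ar1 (r = 0.95 for each), Ctss to Irf5 (0.96) and Ctsz to Pik3ap1 (0.95). Ctsc and Ctsh were both close to Unc93b1 (0.91 and 0.94), Ctsl to Gpnmb (0.87), Lamp1 to Ifi207 (0.92) and Lamp2 to Abca1 (0.89). Cst3 had no close companion, with Syngr2 first at 0.74. Among the members, Ctss with Ctsz and Ctsb with Ctsz were most alike (r = 0.93 for each), and Cst3 was least like the rest, from 0.19 with Ctsl to 0.51 with Lamp1.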

How the data were processed

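Single-nucleus RNA was counted in 6 libraries of dissected lesions from sorted nuclei. The deposited counts are UMIs per gene and barcode from Cell Ranger 7.2.0 per the file headers, whereas the submitters' processing notes list 7.1.0 and mm10. Intronic reads, the aligner's handling of overlapping genes and strand were taken as deposited, and no member overlaps another gene on its own strand, while Ctsb, Ctsl, Ctsz and Lamp1 each overlap 1 gene on the other strand. Gene positions came from GENCODE M21 (GRCm38).

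The lowest and highest 2.5% of barcodes by UMIs and genes and the highest 2.5% by mitochondrial share were left out in each library. Nuclei were clustered with sctransform 0.4.2 and Seurat 5.3.0 in R 4.3.3 on 3000 variable genes without lysosomal, mitochondrial, Xist, Tsix or Y-linked genes, using 30 principal components. Resolutions were 0.5 for all nuclei, 0.2 for fibroblast-like nuclei and 0.25 for myeloid nuclei. A name needed 3 raised markers, a marker being raised where it was detected in 5% of nuclei at 2 times the level of the other nuclei. Fibroblast sub-clusters with 5 raised markers of another class were left out (sub-clusters 1, 7 and 10). Doublets were scored by simulation with the top 0.8% per 1000 barcodes called, and called nuclei were kept and left out in an alternative. UMIs were summed per class and library in Python 3.11.15, and calculations were tested on simulated data. Named genes of the wider lists were the up to 3 with the largest ratio in each direction with an interval that leaves out 0 and no nucleus holding over 20% of the UMIs of a library, and 1 gene that met the rule is not reported here. The members, lists and tests were chosen with earlier results of these data known. Alternatives were TMM scaling (edgeR 4.0.16), other clusterings, single mice, doublet removal and other weights.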

Additional observations from a re-analysis of the deposited data

How the results depend on the processing

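With 1 library per group, leaving out a library was not possible. No paired analysis was possible because each group is 1 library, so the groups share fewer than 2 replicate numbers. The summary tracked was the median log2 ratio of the 10 members in a class. It moved by more than its interval in these cases. In fibroblast-like nuclei it was -0.10 for Tgfbr2-cKO at 21 dpi by the mean of CPM per nucleus and -0.10 without the neuron-marked sub-cluster 8, and -0.21 for ADWA11 at 7 dpi with the left-out sub-clusters kept. In microglia-like nuclei it was 0.47 (TMM scaling) and 0.43 (male nuclei) with time in Ctrl, and for Tgfbr2-cKO at 7 dpi 0.39 without the 5 nuclei with most UMIs of each gene, 0.14 on log-normalised clustering and 0.30 with the unnamed microglia-marked sub-cluster. It was -0.33 for Tgfbr2-cKO at 21 dpi in female nuclei. For ADWA11 it was 0.36 (female nuclei) and -0.28 (log-normalised clustering) at 7 dpi, and -0.71 (without the 5 nuclei) and 0.36 (with the unnamed sub-cluster) at 21 dpi. In the summed macrophages equal weight of groups gave 0.40 and -0.049 for Tgfbr2-cKO at 7 and 21 dpi. At 7 dpi only 1 group, the border-type group, entered that weighting, so 0.40 is the value of that group alone. Adding unnamed sub-clusters 2 and 3 gave 0.048 and 0.20 for ADWA11 at 7 and 21 dpi. Keeping lysosomal genes for clustering, removing called doublets and filtering over all libraries moved no median. Medians were tracked in fibroblast-like nuclei, microglia-like nuclei and the summed macrophages, and not in the border-type group. There, keeping lysosomal genes took Ctsc in Tgfbr2-cKO from -1.36 to -0.53 at 7 dpi and Cst3 from -0.89 to -0.092 at 21 dpi.

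Of the log2 ratios of single members under the alternatives, 1651 kept their value within the interval, 487 moved and 12 reversed. Equal weight of sub-clusters gave 0.011 for Ctsc with time in Ctrl fibroblast-like nuclei and 0.49 for Ctsl in macrophages of Tgfbr2-cKO at 21 dpi. Log-normalised clustering gave -0.045 for Ctsz in Tgfbr2-cKO at 7 dpi and 0.23 for Ctsd under ADWA11 at 21 dpi, both in microglia-like nuclei. With sub-clusters 2 and 3, Ctsc in macrophages was 0.35 with time in Ctrl and 0.19 in Tgfbr2-cKO at 7 dpi. With lysosomal genes kept, macrophages gave -0.72 (Ctsh) and -0.10 (Ctss) in Tgfbr2-cKO at 7 dpi and 0.13 (Ctsl) at 21 dpi. In the border-marked cluster alone, Tgfbr2-cKO at 7 dpi gave 0.089 (Ctsc), -0.25 (Ctsd) and -1.17 (Ctsl). The cause was not tested for any of these. The alternatives that add unnamed or left-out sub-clusters, leave out sub-cluster 8 or keep the border-marked cluster alone were chosen after seeing the data. Few nuclei stand behind some values, namely 112 and 40 microglia-like nuclei of ADWA11, 70 of Tgfbr2-cKO at 7 dpi, and 28 nuclei of the border-marked cluster of Tgfbr2-cKO at 7 dpi.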

Other observations

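Outside the groups described above, Ctsd was highest in Ctrl at 7 dpi in astrocyte-like, oligodendrocyte precursor-like, dendritic-like, endothelial-like, mural-like and T cell-like nuclei, over the libraries with at least 50 nuclei of the class. In astrocyte-like nuclei it was at 477 CPM (438 to 518) there, and at 173 to 262 CPM in the other 5 libraries. In oligodendrocyte precursor-like nuclei it was at 534 CPM (511 to 559) in Ctrl at 7 dpi, 234 CPM with ADWA11 and at 279.8 CPM in Tgfbr2-cKO, and in dendritic-like nuclei at 842 CPM (787 to 899) and 475 CPM (435 to 518) in Ctrl and ADWA11. Neuron-like nuclei of the same library were at 383 CPM, and the part of free RNA in these levels was not tested. Proliferating-like nuclei differed, with 1954 CPM (1867 to 2044) in Tgfbr2-cKO above 1745 CPM (1697 to 1794) in Ctrl at 7 dpi.

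Cst3 was higher at 21 than at 7 dpi in the vascular and astrocyte classes of Ctrl. It was at 88.2 CPM (75.4 to 103) and 294 CPM (275 to 312) in endothelial-like nuclei, at 84.1 CPM (63.7 to 109) and 326 CPM (287 to 369) in mural-like nuclei, and at 87.5 CPM (71.3 to 106) and 339 CPM (325 to 353) in astrocyte-like nuclei. Astrocyte-like nuclei of Tgfbr2-cKO were at 272 CPM (251 to 295) at 7 dpi and at 350.1 CPM at 21 dpi. Under ADWA11 they were at 76.2 and 248 CPM. The Tgfbr2-cKO library at 7 dpi was the neuron-rich one described above, and the part of its make-up in this level was not tested. In neuron-like nuclei Cst3 was at 60.8 CPM in Ctrl at 7 dpi, 32.1 CPM in Tgfbr2-cKO at 7 dpi and 91.5 CPM in Ctrl at 21 dpi.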
